A study of Mus musculus with 24 samples.

Results

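The bins described here hold 10 genes that the transcription factor p53 activates after DNA damage: Cdkn1a, Ccng1, Btg2, Mdm2, Bax, Bbc3, Phlda3, Gdf15, Sesn2 and Zmat3. For each gene, the bin of 1 Mb (mm10) that contains its midpoint was taken, which gave 10 bins of 2645 on chromosomes 1 to 19 and X. All 10 were among the 2582 bins tested. The rule uses no measured value. The counts come from ChIP-seq, the sequencing of DNA recovered with antibodies to a chromatin protein, here the histone variant H2AX and its phosphorylated form γH2AX, and from sequenced input DNA.

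All 24 samples were C57BL6/CAST hybrid cells from female mice, named TTF in the labels, and all are labelled as given 5 Gy of X-rays with 30 min of recovery, so the labels give no unirradiated group. They form 12 groups of 2. Input, H2AX and γH2AX were profiled in wild-type (WT) cells and in cells without SIRT7, a chromatin deacylase (KO). H2AX and γH2AX were also profiled in the KO clones c22 and c9, in the same clones carrying SIRT7-WT, and in the clones c5 and c7 named HY, an abbreviation the labels leave unexplained. The promoter that drives SIRT7-WT is not stated in the labels, and each clone group rests on 2 cloned lines whose order among the columns is not stated. The labels do not say whether the 2 WT or the 2 KO samples were separate cultures, so their p-values measure only the spread between libraries, which may be technical. DNA counts carry no expression markers, so the cell type was not checked against any.

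In resting cells p53 is kept low by MDM2, the ubiquitin ligase that marks it for degradation. Breaks in DNA activate the kinases ATM and CHK2, which stabilise p53, and p53 then binds response elements near its target genes and raises their transcription. ATM also phosphorylates H2AX over broad domains of chromatin around a break, and γH2AX is the usual mark of such domains. A 1 Mb bin holds a target gene together with its neighbours and resolves neither the gene nor its promoter.

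The genes of the cell cycle are Cdkn1a, which encodes the cyclin-dependent kinase inhibitor p21, Ccng1, which encodes cyclin G1, and Btg2, an antiproliferative gene. In mm10, Cdkn1a lies on chromosome 17 at 29090979 to 29100722, in the bin 29000001 to 30000000 with 17 protein-coding genes, among them Rnf8, a ubiquitin ligase of the DNA break response. Ccng1 lies on chromosome 11 at 40748552 to 40755309, in the bin 40000001 to 41000000 with 4 coding genes. Btg2 lies on chromosome 1 at 134074865 to 134079155, in the bin 134000001 to 135000000 with 19. The feedback regulator Mdm2 lies on chromosome 10 at 117688875 to 117710758, in the bin 117000001 to 118000000 with 14. The genes of cell death are Bax and Bbc3, whose products (the latter known as PUMA) act at the mitochondrial outer membrane, and Phlda3, a repressor of AKT signalling. Bax lies on chromosome 7 at 45461695 to 45466903, in the bin 45000001 to 46000000 with 66 coding genes, and Bbc3 on the same chromosome at 16308398 to 16318334, in the bin 16000001 to 17000000 with 32. Phlda3 lies on chromosome 1 at 135766085 to 135769134, in the bin 135000001 to 136000000 with 18, next to the bin of Btg2. The remaining genes are Gdf15, a secreted stress cytokine, Sesn2, a stress-induced inhibitor of mTORC1 signalling, and Zmat3, an RNA-binding protein. Gdf15 lies on chromosome 8 at 70629393 to 70632470 (bin 70000001 to 71000000, 53 coding genes), Sesn2 on chromosome 4 at 132492804 to 132510456 (bin 132000001 to 133000000, 22) and Zmat3 on chromosome 3 at 32334792 to 32365665 (bin 32000001 to 33000000, 11). Each gene lies wholly inside its bin.

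The bins were richer in genes than most of the genome. The tested bins held a median of 5 coding genes, and 9 of the 10 bins fell in the gene-richest tercile of their chromosome. The bin of Ccng1, with 4 coding genes against a median of 9 on chromosome 11, fell in the gene-poorest tercile. This property is set beside the results below, since it was not part of the rule.

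Matches to the consensus of p53 response elements are shown here, to set the size of such a site against the bin. Binding of p53 was not measured in these data. Promoters of RefSeq (GRCm38.p6, 250 bases before to 50 bases after the start) were present for 9 genes, all but Zmat3. Both strands were searched for the p53 consensus of 2 adjoining half-sites of 10 bases, allowing 3 mismatches in 20 bases. The fixed C and G of each half-site had to match. Of 32851 promoters, 453 (1.38%) held such a match and 22 (0.067%) held one with at most 1 mismatch. Among the 13 promoters of these genes 3 held a match, given here 5′ to 3′ along the strand of the gene with the 20 matching bases in capitals and 10 bases on each side.
Cdkn1a: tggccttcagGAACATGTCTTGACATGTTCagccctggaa
Ccng1: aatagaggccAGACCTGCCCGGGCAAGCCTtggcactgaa
Bbc3: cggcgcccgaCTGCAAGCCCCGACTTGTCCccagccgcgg
The Cdkn1a match spans chr17:29090928-29090947 on the plus strand, has 1 mismatch and ends 32 bases before an annotated start. The Ccng1 match spans chr11:40755462-40755481 on the minus strand, has 1 mismatch and ends 176 bases before an annotated start. The Bbc3 match spans chr7:16309486-16309505 on the plus strand, has 3 mismatches and ends 78 bases before an annotated start. The other 6 genes with a promoter entry had no match in this window, which says nothing about elements elsewhere.

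The first deposited table holds WT and KO libraries of 170013624 to 268180310 reads, and the bins of the 10 genes held 47999 to 152896 reads in each. The second holds the clones, at 70349148 to 155364952 reads with 19775 to 137877 in these bins, and WT again. Each group of the first table has 1 column named NT and 1 named Xray, although every label states irradiation. The pair was treated as 2 replicates of the group, since the labels list 2 samples there, and the libraries are called here by those names. In each assay the counts of WT replicate 2 (second table) equalled those of the NT-named WT column in 2645 of 2645 bins. The Xray-named WT column equalled neither replicate of the second table, with 56 to 59 bins alike, so the 2 labelled WT samples have 3 different columns and which labelled sample the Xray-named one is was not settled. The deleted gene, Sirt7, shares a bin with Dcxr, a further p53 target. In γH2AX that bin was lower in KO than in WT by a log2 difference of -1.02 (adjusted p = 2.11e-06). It was also lower in H2AX (-0.98, adjusted p = 2.33e-06) and in input DNA (-0.91, adjusted p = 1.77e-06). Values are CPM, read counts scaled to the size of the library, and differences are log2 fold changes from edgeR's quasi-likelihood test on all tested bins, two-sided, with Benjamini-Hochberg adjustment and a threshold of 0.05.

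The first comparison asked whether these bins carried more H2AX and γH2AX than input DNA. In WT cells 9 of the 10 bins were enriched in both assays, and the bin of Ccng1 was depleted in both. The largest enrichment was at Gdf15. Its bin held 300.2 CPM of input in the NT-named and 300.1 in the Xray-named WT library, 383 and 395 CPM of H2AX, and 368 and 448 CPM of γH2AX. Both immunoprecipitations lay above input in both libraries without overlap. The γH2AX difference was 0.44 (SE 0.0905, adjusted p = 0.00303), a fold of 1.36, and the H2AX difference 0.37 (SE 0.0905, adjusted p = 0.00693). Only 2 of the 127 bins of chromosome 8 ranked above it in either assay.

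Among the bins of cell death genes, that of Bax held 304 and 298 CPM of input, 366 and 373 of H2AX, and 367 and 423 of γH2AX in the NT-named and Xray-named WT libraries. The γH2AX difference over input was 0.39 (SE 0.0739, adjusted p = 0.00248), the third of 143 bins of chromosome 7. At Phlda3 input was 316 and 314 CPM, H2AX 375 and 383, and γH2AX 371 and 417. The γH2AX difference there was 0.32 (SE 0.0643, adjusted p = 0.00281), the second of 193 bins of chromosome 1. At Bbc3 input was 312 and 304 CPM, H2AX 363 and 369, and γH2AX 349.7 and 415, a difference of 0.31 (SE 0.0856, adjusted p = 0.00977). In all 3 bins the lower immunoprecipitated library stood above the higher input library.

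Among the cell cycle genes, Cdkn1a and Ccng1 lay on opposite sides of input. The bin of Cdkn1a held 439.9 and 437 CPM of input, 527 and 548 of H2AX, and 529 and 581 of γH2AX, and its γH2AX difference was 0.34 (SE 0.0543, adjusted p = 0.00176). The bin of Ccng1 held 288 CPM of input in each WT library, 265 and 263 of H2AX, and 269 and 264 of γH2AX. Its difference was -0.11 in γH2AX (SE 0.022, adjusted p = 0.00295) and -0.12 in H2AX (adjusted p = 0.0017). It ranked 103rd of 119 bins of chromosome 11 in γH2AX and 114th in H2AX. These 2 genes hold the promoter matches with the fewest mismatches. Btg2 lay between them at 0.19 (SE 0.0454, adjusted p = 0.00523), on input of 315 and 310.2 CPM and γH2AX of 340.4 and 373 CPM.

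The remaining bins were also higher than input. Sesn2 had 347 and 387 CPM of γH2AX on 316 and 311 of input, a difference of 0.23 (adjusted p = 0.00858). Zmat3 had 389 and 421 CPM on 371 and 369.7, a difference of 0.13 (adjusted p = 0.0186). Mdm2, the negative regulator of p53, had 521 and 544 CPM on 500.0 and 495, a difference of 0.10 (adjusted p = 0.0233). The H2AX differences in the bins not yet given were 0.30 at Bax, 0.29 at Cdkn1a, 0.27 at Phlda3, 0.25 at Bbc3, 0.18 at Sesn2, 0.16 at Btg2, 0.11 at Zmat3 and 0.10 at Mdm2, all past the threshold.

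**Figure D1:**
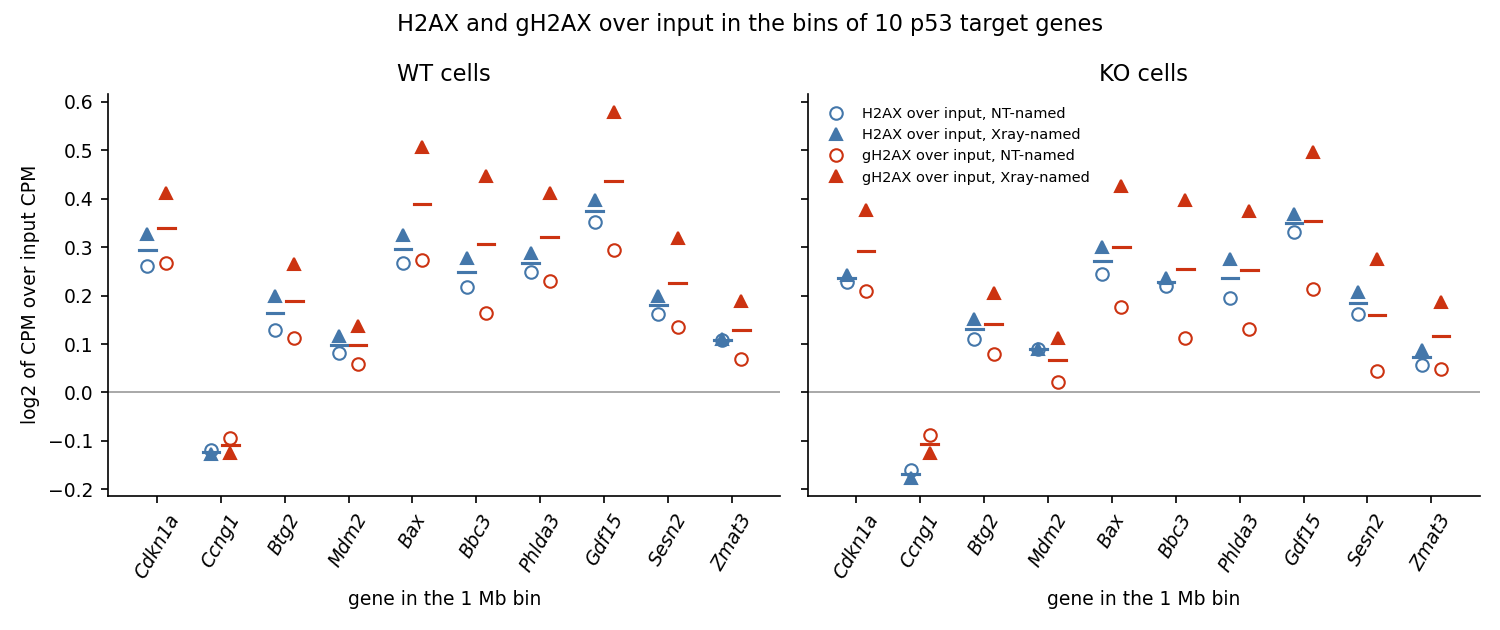
Log2 ratio of CPM over input CPM for H2AX and γH2AX (gH2AX) in each of the 10 bins, in WT (one panel) and KO (the other) cells. Open circles are NT-named libraries, triangles Xray-named libraries and bars the mean of the 2. The γH2AX ratio at Gdf15 reached 0.29 and 0.58 in WT, and Ccng1 was below 0 in every library.

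Calls of this kind were common. Of all tested bins, 34.6% were higher and 35.3% lower in γH2AX than in input in WT, and 30.5% and 25.9% in H2AX. The median of the 10 bins was 0.27 in γH2AX and 0.21 in H2AX, against 0.00 and -0.00 over all bins. In γH2AX 9 of the 10 lay above the median of their own chromosome, and 8 lay above the median of bins of the same chromosome and the same tercile of gene content. The exceptions in the latter were Mdm2 and Ccng1, each close to that median (0.10 against 0.10, and -0.11 against -0.09). Sesn2 was likewise level with it (0.23 against 0.23). The tercile matches gene content only coarsely. For the 9 bins in a gene-richest tercile, 79.3% (Cdkn1a) to 99.3% (Bax) of the bins of their chromosome held fewer coding genes. Whether they exceed bins of equal gene content was not tested. With libraries scaled to the autosomal total the share of called bins that were higher fell from 49.5% to 37.9% in γH2AX and from 54.1% to 39.8% in H2AX. The H2AX count of 10 rested on having both libraries of each kind: it was 6 without the NT-named H2AX library and 5 without the Xray-named one or without either input library.

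**Figure D2:**
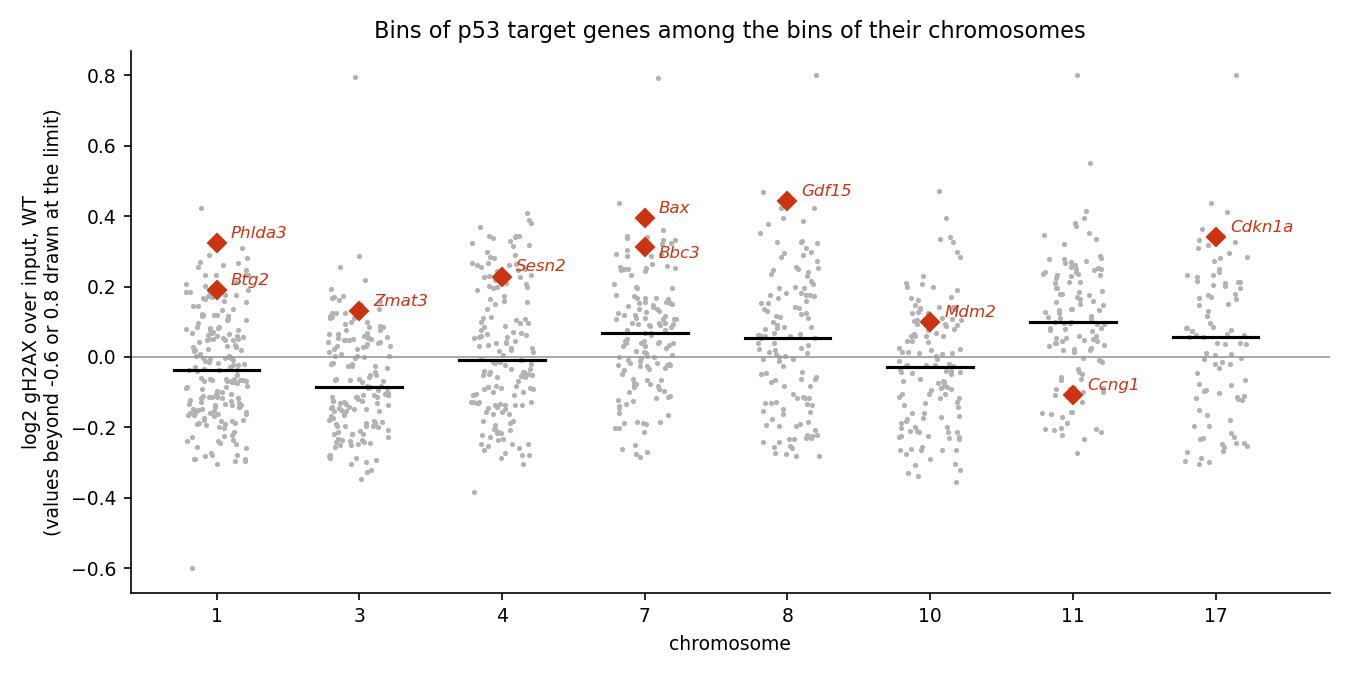
Log2 difference of γH2AX over input in WT for all tested bins of the 8 chromosomes that hold the genes (grey points), the median of each chromosome (black line) and the bins of the 10 genes (red diamonds). Values beyond -0.6 or 0.8 are drawn at the limit; Gdf15 at 0.44 and Bax at 0.39 stand near the top of chromosomes 8 and 7, and Ccng1 at -0.11 below the median of chromosome 11.

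In KO cells the bins ranked much as in WT. Gdf15 again had the largest difference, with 361 and 353 CPM of input, 454 and 456 of H2AX (NT-named and Xray-named), and 419 and 498 of γH2AX. The γH2AX difference was 0.36 (SE 0.0905, adjusted p = 0.00932) and that of H2AX 0.35 (adjusted p = 0.0115). In γH2AX 8 bins were higher than input, 1 was lower (Ccng1, -0.11, adjusted p = 0.00482) and Mdm2 did not pass (0.07, adjusted p = 0.0965). The others were 0.31 at Bax, 0.30 at Cdkn1a, 0.26 at Bbc3 and Phlda3, 0.16 at Sesn2, 0.14 at Btg2 and 0.12 at Zmat3. Over all bins 25.3% were higher and 36.3% lower. In H2AX 7 were higher and Ccng1 was lower (-0.17, adjusted p = 0.000466), while Bbc3 (0.23, adjusted p = 0.0507) and Zmat3 (0.07, adjusted p = 0.162) did not pass, with 21.4% of all bins higher and 28.2% lower. DESeq2's size factors in place of TMM moved the share of higher calls from 41.1% to 51.1% in γH2AX and from 43.1% to 54.1% in H2AX. The 9 calls in γH2AX fell to 4 without the Xray-named γH2AX library, to 5 without the NT-named input and to 2 without the Xray-named input. The 8 calls in H2AX fell to 5 and 2 without the NT-named and Xray-named H2AX library, and to 3 and 2 without the NT-named and Xray-named input.

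When γH2AX was set against H2AX, no bin of the 10 passed in either genotype. In WT the ratio of the NT-named libraries ran from -0.06 to 0.02 and was below 0 in 7 of 10 bins, and that of the Xray-named libraries ran from 0.00 to 0.18 and was above 0 in all 10. In KO the corresponding ranges were -0.12 to 0.07, with 9 below 0, and 0.02 to 0.16, with 10 above. The 2 libraries of a group therefore lay mostly on opposite sides of 0. The differences were -0.00 to 0.10 in WT (adjusted p = 0.366 to 0.995) and -0.02 to 0.06 in KO (adjusted p = 0.176 to 0.96). At an unadjusted p under 0.05 there were 0 in WT and 1 in KO, and DESeq2 called 0 and 1. Over all bins 12.2% passed in WT and 3.8% in KO. Of those bins 70.6% were higher in WT, against 81.5% with DESeq2's size factors and 47.8% with the autosomal total. In KO 89.8% were higher, against 79.5% with the autosomal total.

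A fit with the column name as a block takes out, within each assay, what like-named WT and KO libraries share. It does not pair γH2AX with H2AX libraries, and the difference between names shared by WT and KO is left out of its spread. In WT it called 5 bins, all higher in γH2AX than in H2AX: Bax (0.09, adjusted p = 0.000886), Bbc3, Gdf15, Phlda3 and Sesn2. In KO it called Ccng1 (0.06, adjusted p = 0.0192), Zmat3 (0.04, adjusted p = 0.0455) and Bax (0.03, adjusted p = 0.0393). This block called 65.3% of all bins in WT and 41% in KO. Like-named γH2AX and H2AX libraries deviated together to a small extent (r = 0.426 in WT and 0.252 in KO), while γH2AX and input deviated in opposite directions (r = -0.208 and -0.526). A block for the cells that a genotype and name share, the fit used for the clones below, called 0 of the 10 bins in WT and 0 in KO. The calls under the block by name were thus not found under the other block.

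The difference between the names was therefore measured itself. With 1 coefficient per assay for the column name, adjusted for genotype, γH2AX was higher in the Xray-named libraries in 8 of the 10 bins. At Gdf15 the Xray-named library held 448 CPM against 368 in WT and 498 against 419 in KO, a difference of 0.27 (SE 0.0126, adjusted p = 0.000321) and the highest of the 127 bins of chromosome 8. At Bbc3 the values were 415 against 349.7 and 394 against 329, a difference of 0.25 (SE 0.0078, adjusted p = 0.000148) and the second of 143 bins of chromosome 7. At Bax they were 423 against 367 and 396 against 339, a difference of 0.22 (adjusted p = 0.000148). Both genotypes gave the same direction and about the same size in these bins.

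The other bins called were Phlda3 (0.18), Sesn2 (0.17), Cdkn1a (0.15, adjusted p = 0.0248), Btg2 (0.12) and Zmat3 (0.11). Mdm2 (0.07, adjusted p = 0.0687) and Ccng1 (-0.03, adjusted p = 0.0502) did not pass. At Ccng1 the Xray-named library held 264 CPM against 269 in WT and 264 against 268 in KO. Over all bins 35.1% were higher in the Xray-named γH2AX libraries and 38.3% lower. Relative to the same contrast in input, 7 of the 10 were higher, Cdkn1a no longer passing (0.16, adjusted p = 0.0605), with 31.8% of all bins. With the autosomal total the share of higher calls was 59.1% in place of 47.8%, and 57.3% in place of 47.0% relative to input. For Zmat3, counts summed over a window of 3 Mb around the bin gave -0.00 in place of 0.11.

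In H2AX and in input none of the 10 bins passed. In H2AX the differences were -0.00 to 0.03 (adjusted p = 0.145 to 0.945), with 2 at an unadjusted p under 0.05 and 1 by DESeq2. In input they were -0.03 to 0.01 (adjusted p = 0.207 to 1), with 3 at an unadjusted p under 0.05 and 0 by DESeq2. Over all bins 0% passed in H2AX and 0% in input. With DESeq2's size factors in place of TMM, 310 of all tested bins passed in H2AX, 217 of them higher and 93 lower, and 0 in input. The labels do not say what the names stand for, and since every sample is labelled irradiated, the difference between names cannot be read as one between irradiated and unirradiated cells.

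**Figure D3:**
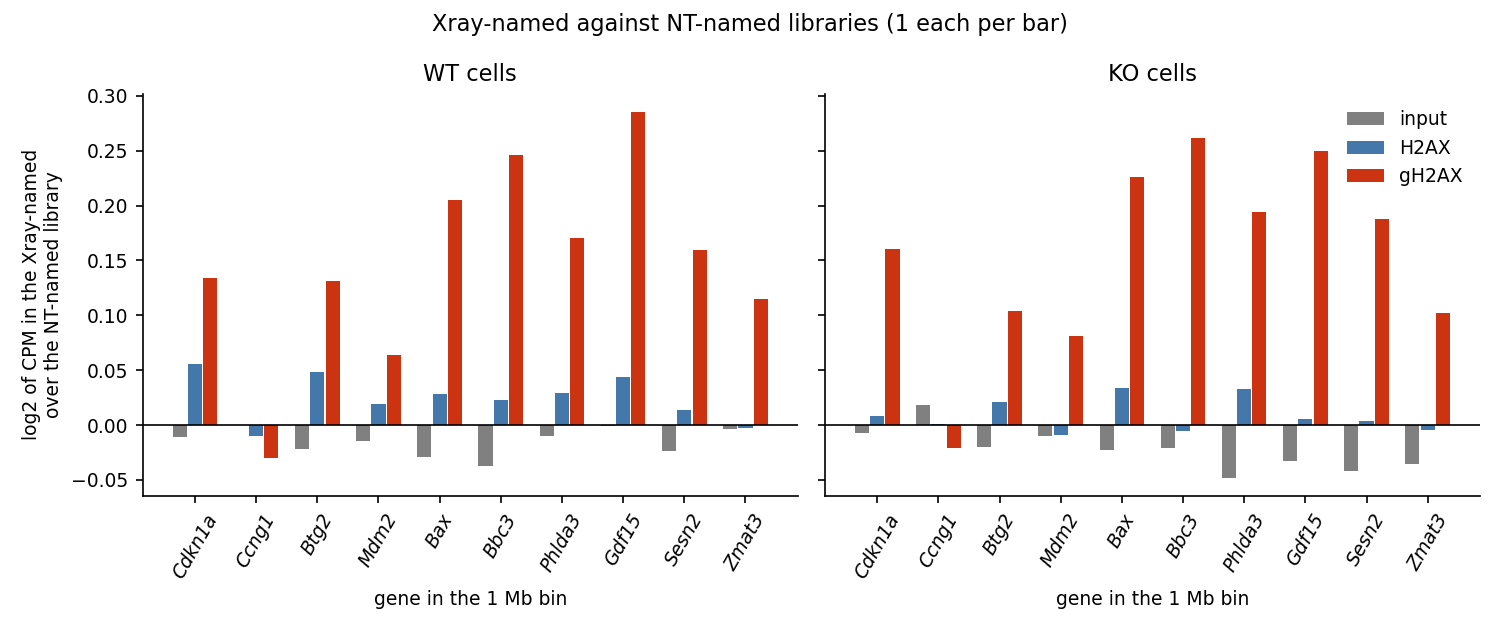
Log2 ratio of the Xray-named over the NT-named library for each of the 10 bins in input, H2AX and γH2AX (gH2AX), in WT and KO cells. Each bar is 1 library against 1, with no error; the γH2AX bars of Gdf15, Bbc3 and Bax exceed every H2AX and input bar, and Ccng1 is near 0 in all 3 assays.

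The next question was how these bins differed between KO and WT cells. Whether a difference came from the loss of SIRT7 was not tested. In γH2AX 1 bin was higher in KO than in WT and 2 were lower. The bin of Mdm2 held 682 and 721 CPM in the KO libraries and 521 and 544 in the WT libraries, a difference of 0.40 (SE 0.0329, adjusted p = 1.4e-05). The bin of Zmat3 held 330.4 and 355 CPM in KO against 389 and 421, a difference of -0.24 (SE 0.0412, adjusted p = 0.000685). That of Cdkn1a held 455 and 509 CPM against 529 and 581, a difference of -0.20 (SE 0.0543, adjusted p = 0.00881). In each of these bins the KO and WT libraries did not overlap. Over all bins 60.1% differed.

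The same bins moved in H2AX and in input DNA. The input libraries of KO held 672 and 667 CPM at Mdm2 where those of WT held 500.0 and 495, a difference of 0.43 (adjusted p = 7.52e-06). Zmat3 differed by -0.23 (adjusted p = 0.000943) and Cdkn1a by -0.16 (adjusted p = 0.0303) in input, and Gdf15 passed there as well (0.25, adjusted p = 0.0362). In H2AX the differences were 0.42 at Mdm2 (adjusted p = 9.71e-06), -0.27 at Zmat3 (adjusted p = 0.000385) and -0.22 at Cdkn1a (adjusted p = 0.00626), and Gdf15 did not pass (0.23, adjusted p = 0.0506). Over all bins 63.3% differed in H2AX and 57.5% in input. Each of these bins also lay close to the median of its chromosome. In γH2AX that median was 0.39 on chromosome 10 (Mdm2), -0.21 on chromosome 3 (Zmat3), -0.19 on chromosome 17 (Cdkn1a) and 0.17 on chromosome 8, where Gdf15 stood at 0.17.

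The counts moved with single libraries. In γH2AX 8 bins passed when the Xray-named KO library was left out, and 8 when the NT-named WT library was. In input 2 passed when any 1 of the 4 input libraries was left out. In every assay a KO library deviated from its group mean as the WT library of the same name did (r = 0.959 across bins in γH2AX, 0.68 in H2AX and 0.486 in input), so the fit with the column name as a block is the paired one. It called 9 bins in γH2AX, all but Ccng1, with Bax at -0.10 (adjusted p = 0.000136) and Gdf15 at 0.17 (adjusted p = 0.000278). It called 9 in H2AX, all but Sesn2, and 7 in input, where Ccng1, Bax and Sesn2 did not pass. The same block called 82.9%, 81.6% and 80.2% of all bins.

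To set each bin against its own chromosome, the fit was repeated with the chromosome's reads as the library size. Only the bin of Ccng1 then passed, and it did so in all 3 assays. In γH2AX it held 268 and 264 CPM of all reads in KO and 269 and 264 in WT, while the median of chromosome 11 was 0.17 higher in KO, and relative to its chromosome it was lower by a log2 difference of -0.14 (SE 0.029, adjusted p = 0.0174). The value was -0.18 in H2AX (adjusted p = 0.00478) and -0.18 in input (adjusted p = 0.00491). Bins of the gene-poorest tercile of chromosome 11 had medians of -0.14, -0.17 and -0.18 in the 3 assays, so Ccng1 was level with them. In this fit 7.51% of all bins differed in γH2AX (45.9% of them higher, 34.2% with DESeq2's size factors), 5.96% in H2AX and 7.09% in input.

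The call at Ccng1 rested on single libraries. In γH2AX no bin passed without the NT-named WT library and 2 passed without the Xray-named KO library. None passed in H2AX without either KO library, nor in input when the NT-named KO library or either WT library was left out. With the block by name 5 bins differed from their chromosome in γH2AX: Ccng1, Cdkn1a (-0.19, adjusted p = 0.00272), Phlda3 (-0.05), Zmat3 (-0.05) and Btg2 (-0.04). For Cdkn1a the median of chromosome 17 in the fit without the block was itself -0.18, equal to its own -0.18. The block called 4 in H2AX (Ccng1, Sesn2 at 0.06, Bax at 0.05 and Zmat3 at -0.05) and only Ccng1 in input. It called 36.3% of all bins in γH2AX, 30.4% in H2AX and 31.8% in input.

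Relative to input, none of the 10 bins passed in γH2AX of KO against WT. The differences ran from -0.09 at Bax (SE 0.105) to 0.00 at Ccng1 (SE 0.0311), with adjusted p = 0.937 to 0.984, and 0 at an unadjusted p under 0.05 or by DESeq2. Relative to H2AX they ran from -0.07 to 0.05 (adjusted p = 0.997 for all 10), again 0 at an unadjusted p under 0.05 or by DESeq2. Over all bins 0.0387% and 0.155% passed. With the block by name Bax (-0.09, adjusted p = 0.026) and Sesn2 (-0.07, adjusted p = 0.0496) were lower in KO relative to input, with 13.6% of all bins called.

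The clones gave a different picture of γH2AX against H2AX. Input columns named for the clones were deposited, but no input sample is labelled for them. Those columns were not used, so enrichment of the clones over input was not analysed here. In the KO clones γH2AX was lower than H2AX in 9 of the 10 bins and higher in that of Ccng1. The bin of Gdf15 held 891 and 924 CPM of H2AX in clone libraries 1 and 2, and 497 and 385 CPM of γH2AX. The difference was -1.04 (SE 0.143, adjusted p = 0.000433), a fold of 0.486, and ranked 126th of the 127 bins of chromosome 8. The bin of Bax held 678 and 806 CPM of H2AX against 398 and 350.4 of γH2AX, a difference of -0.99 (SE 0.154, adjusted p = 0.000433), the lowest of 143 bins of chromosome 7. At Ccng1 γH2AX was 244 and 295 CPM on 202 and 202 CPM of H2AX (0.42, adjusted p = 0.0119). No γH2AX library overlapped an H2AX library in these bins.

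The other differences in the KO clones were -0.91 at Bbc3, -0.90 at Phlda3, -0.87 at Cdkn1a, -0.74 at Sesn2, -0.66 at Btg2, -0.56 at Mdm2 and -0.41 at Zmat3 (adjusted p = 0.0316), all past the threshold. As for enrichment over input in WT, Gdf15 and Bax stood at one end and Ccng1 at the other. Over all bins 32.6% were higher and 29.9% lower. The median of the 10 was -0.81 against -0.00 over all bins. Of the 10, 9 lay below the median of bins of the same chromosome and tercile of gene content, as above only a coarse match.

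In the clones carrying SIRT7-WT 8 of the bins were lower and Ccng1 higher (0.37), with Gdf15 at -0.77 (adjusted p = 0.00189), Bax at -0.75 (adjusted p = 0.00218), Bbc3 at -0.70, Cdkn1a at -0.69, Phlda3 at -0.68, Sesn2 at -0.54, Btg2 at -0.51 and Mdm2 at -0.49. Zmat3 did not pass (-0.35, adjusted p = 0.0656). Of all bins 30.6% were higher and 25.1% lower. Without clone library 2 of H2AX, or without that of γH2AX, 5 of the 10 passed. In the HY clones 8 were lower and Ccng1 higher (0.40), with Gdf15 at a fold of 0.499 (adjusted p = 0.000559) and Bax at -0.94 (adjusted p = 0.00061), and Zmat3 did not pass (-0.34, adjusted p = 0.0675). Here 31.6% of all bins were higher and 27.9% lower.

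Scaling to the autosomal total moved the median of all bins in these 3 contrasts by 0.17, 0.13 and 0.18, and the share of higher calls from 52.2% to 67.5%, from 54.9% to 70.3% and from 53.1% to 69.4%. In each clone group the γH2AX and H2AX libraries of like number deviated together (r = 0.436 to 0.845), and with a block for the named cells Zmat3 passed as well in the SIRT7-WT clones (adjusted p = 0.000104) and the HY clones (adjusted p = 8.64e-05).

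**Figure D4:**
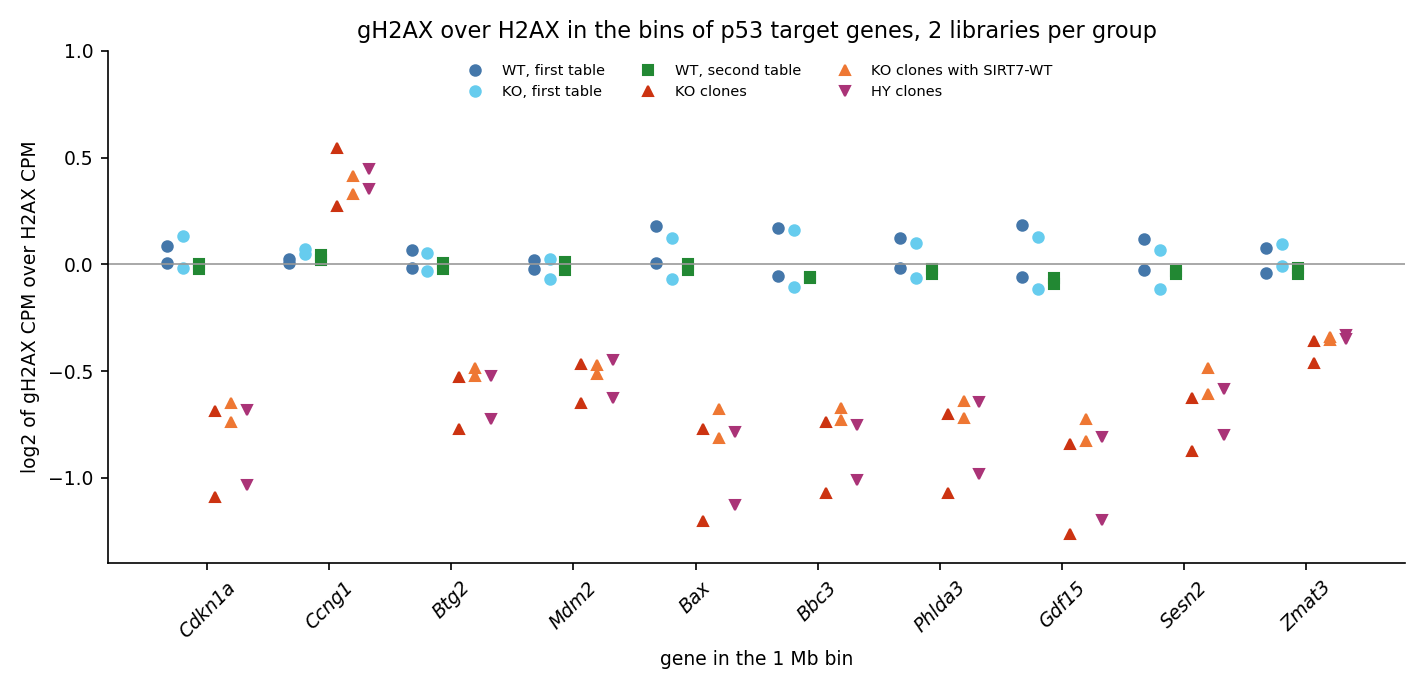
Log2 ratio of γH2AX over H2AX CPM in each of the 10 bins, 1 point per library pair, in WT and KO of the first table, WT of the second table, KO clones, KO clones with SIRT7-WT and HY clones. Replicate 2 of WT in the second table has the counts of the NT-named WT pair, so that pair appears in both WT sets. WT and KO points lie near 0, and clone points lie below 0 in every bin but that of Ccng1, from -1.26 at Gdf15 to -0.33 at Zmat3.

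The return of SIRT7-WT to the KO clones was examined in γH2AX. Gdf15 held 596 and 512 CPM with SIRT7-WT against 497 and 385 without, and Bax 465 and 458 against 398 and 350.4. Phlda3 held 448 and 520.4 against 396 and 403. At all 3 the libraries with SIRT7-WT lay above those without. In the fit of all clones, none of the 10 bins passed. The differences were 0.33 at Gdf15 (SE 0.141), 0.30 at Bax (SE 0.152) and 0.28 at Phlda3 (SE 0.205), with adjusted p = 0.99 for all 10, and 1 bin at an unadjusted p under 0.05. The remaining bins ran from -0.03 at Ccng1 to 0.26 at Bbc3. Over all bins 0.0387% passed, which is 1 bin, that of Sirt7 and Dcxr (3.63, adjusted p = 0.0141). Within its chromosome, Gdf15 was the highest of 127 bins of chromosome 8 and Phlda3 the highest of 193 bins of chromosome 1.

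The KO clones with and without SIRT7-WT are the same lines, and like-numbered libraries deviated together (r = 0.854 in γH2AX and 0.936 in H2AX). A fit of these clones alone with the number as a block, chosen after the data were seen, called 7 of the 10 bins higher with SIRT7-WT. They were Gdf15 (0.34, adjusted p = 5.05e-05), Bax (0.31, adjusted p = 3.17e-05), Phlda3 (0.27, adjusted p = 0.000208), Bbc3 (0.26, adjusted p = 0.000104), Cdkn1a (0.25, adjusted p = 0.00135), Sesn2 (0.25, adjusted p = 0.00029) and Btg2 (0.20, adjusted p = 0.00144). Zmat3 (adjusted p = 0.0829), Mdm2 (adjusted p = 0.2) and Ccng1 (adjusted p = 0.554) did not pass. Of all bins 23.5% were higher in that fit. In H2AX, and in γH2AX relative to H2AX, the same fit called none of the 10 (lowest adjusted p of the latter 0.221), with 0% and 0.232% of all bins called.

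Without the block, γH2AX relative to H2AX differed between clones with and without SIRT7-WT by -0.04 to 0.27 and H2AX by 0.01 to 0.06, with 0 of the 10 bins called and 0 at an unadjusted p under 0.05. Over all bins 0% passed in both. Between HY and KO clones the 10 bins differed by -0.08 at Zmat3 to 0.36 at Phlda3 in γH2AX, by -0.01 to 0.12 in γH2AX relative to H2AX, and by -0.14 to 0.24 in H2AX. None passed, and none did so at an unadjusted p under 0.05. Over all bins the shares were 0.0387%, 0% and 0.0387%. DESeq2 called 0 of the 10 in each of these contrasts.

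The clones were set against WT of the second table in a fit added after the data were seen. None of the clones is labelled wild-type, so genotype cannot be told apart here from cloning or from the set of libraries. In WT the γH2AX over H2AX ratio of the 10 bins was -0.09 to 0.04 in replicate 1 and -0.06 to 0.02 in replicate 2. Relative to WT, the ratio in KO clones was lower at Bax (-0.97, adjusted p = 0.012), Gdf15 (-0.95, adjusted p = 0.012), Phlda3 (-0.86), Cdkn1a (-0.85), Bbc3 (-0.84), Sesn2 (-0.70) and Mdm2 (-0.55), and higher at Ccng1 (0.39, adjusted p = 0.0351). Btg2 (-0.65, adjusted p = 0.0626) and Zmat3 (-0.37, adjusted p = 0.147) did not pass. The KO clone libraries did not overlap the WT libraries in any of these bins. Of all bins 27.8% were higher and 22% lower.

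In clones with SIRT7-WT 4 bins were lower than in WT, those of Bax, Gdf15, Bbc3 and Mdm2, with 11.7% of all bins lower. In HY clones 6 were lower and Ccng1 higher, with 25.1% of all bins higher and 18.4% lower. With the autosomal total the share of higher calls rose from 55.8% to 73.9% in KO clones, from 65.1% to 93.0% with SIRT7-WT and from 57.8% to 78.0% in HY, and the median of all bins moved by 0.17, 0.14 and 0.16. These calls depended on the WT libraries: in each of the 3 contrasts 0 of the 10 bins passed without γH2AX replicate 1 or H2AX replicate 2 of WT, or without the second γH2AX or H2AX library of the clones concerned, and with SIRT7-WT none passed without any 1 of its 4 clone libraries either. Here the assays of 1 WT replicate deviated together (r = 0.986), and with a block for the named cells all 10 bins passed in each contrast. Adjusted p of the 10 then ran to at most 0.00354, 0.0121 and 0.00812, and 41.6%, 40.9% and 41.7% of all bins were higher and 41.8%, 39.2% and 39.5% lower.

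Each assay was then set against WT alone, without input. The input columns named for the clones match no labelled sample and were not used. A difference in DNA content was thus not separated from one in H2AX or γH2AX. In H2AX the KO clones exceeded WT at Gdf15, with 891 and 924 CPM against 497 and 391, by 1.01 (SE 0.165, adjusted p = 0.000301). They exceeded it at Bax, with 678 and 806 CPM against 471 and 373, by 0.79 (adjusted p = 0.00141). Phlda3 (0.77), Sesn2 (0.76), Mdm2 (0.69), Bbc3 (0.67) and Btg2 (0.60) were higher as well, and Ccng1 was lower, with 202 and 202 CPM against 248 and 270 (-0.38, adjusted p = 0.00543). Cdkn1a (0.38, adjusted p = 0.0799) and Zmat3 (0.18, adjusted p = 0.319) did not pass. Over all bins 25.5% were higher and 31.6% lower. Without WT replicate 2 of H2AX, 5 of the 10 passed.

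In γH2AX itself, none of the 10 bins passed between KO clones and WT. Gdf15 held 497 and 385 CPM against 466 and 374, and Bax 398 and 350.4 against 463 and 373, so that the groups overlapped in both. The differences ran from -0.47 at Cdkn1a to 0.14 at Mdm2 (adjusted p = 0.152 to 0.983), with 1 at an unadjusted p under 0.05, and with the block by name Cdkn1a passed (-0.48). Over all bins 1.05% passed, 14.8% of them higher, against 93.1% with the autosomal total, which moved the median of all bins by 0.16. The test of whether the 2 assays differ from WT by different amounts is the contrast of γH2AX over H2AX given above. The 2 WT replicates also differed from each other. Over input, replicate 1 stood at 0.69 for H2AX at Gdf15 and 0.58 at Bax, and replicate 2 at 0.35 and 0.27.

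Across the 2582 bins these measures ran with the number of coding genes in the bin. Spearman's rho was 0.661 for γH2AX over input in WT and 0.622 in KO, 0.548 and 0.542 for H2AX over input, and 0.701 for the difference between names in γH2AX. It was -0.709, -0.69 and -0.704 for γH2AX over H2AX in the KO, SIRT7-WT and HY clones, 0.702 for SIRT7-WT against KO clones in γH2AX, and 0.654 for KO clones against WT in H2AX. These are descriptions over bins that share the same libraries, and no p is given. The part of gene content in the values of the 10 bins was not tested beyond the coarse comparison with bins of the same tercile.

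**Figure D5:**
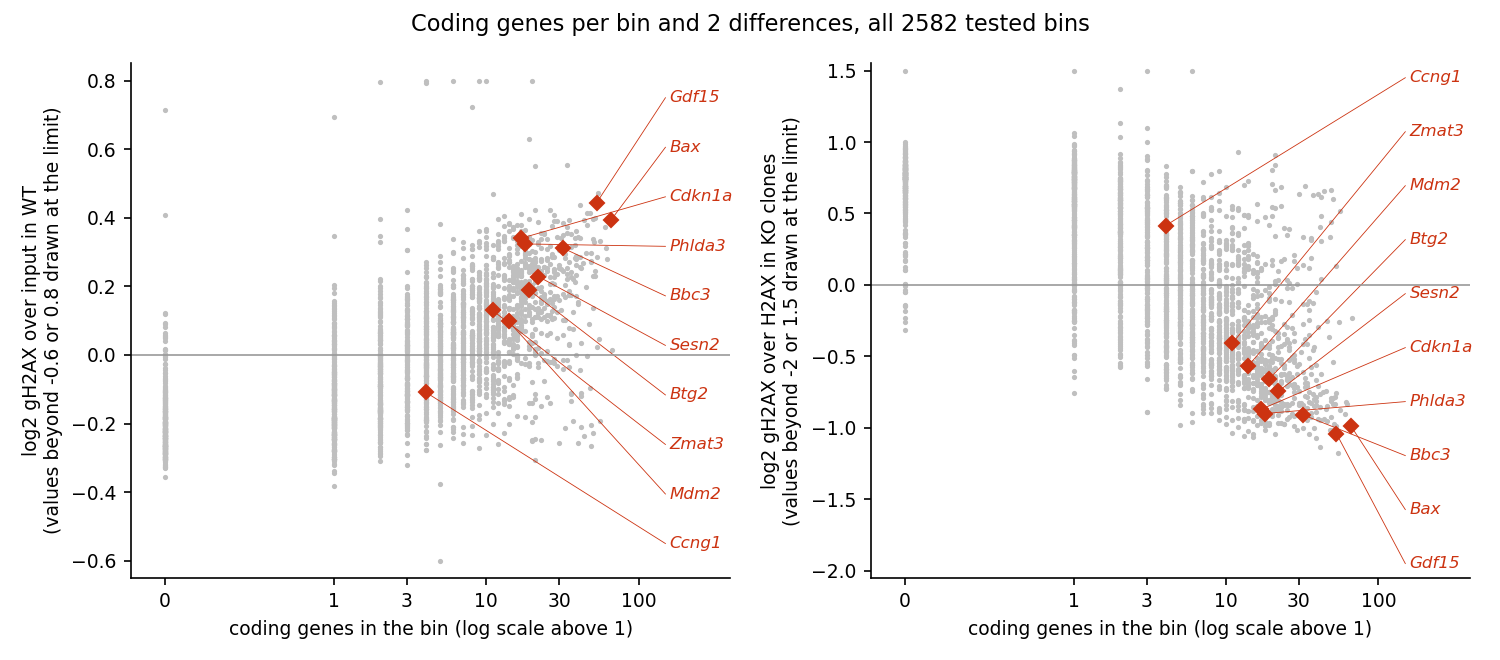
Number of protein-coding genes per bin against γH2AX over input in WT (one panel) and γH2AX over H2AX in KO clones (the other), log2, for all 2582 tested bins (grey; the 10 in red, named). The gene axis is logarithmic above 1, and values beyond the printed limits are drawn at the limit. Over input values rise and in the clones fall with gene number; among the 10, Bax has the most genes (66) and Ccng1 the fewest (4).

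Further p53 targets and regulators of p53 were examined as lists. The 32 bins of other targets that were not already among the 10 held a median of 12 coding genes, and the 12 bins of regulators 10.5. In γH2AX over input of WT, 20 of 32 target bins were higher and 5 lower (median 0.15), and 5 of 12 regulator bins were higher and 2 lower (median 0.03), against 34.6% and 35.3% of all bins. Among the targets were Dcxr at 0.41, Trp73, a relative of p53, at 0.33, Sulf2 at 0.31 and Rprm, a mediator of arrest in G2, at -0.29. The bin of Trp53, the gene of p53 itself, stood at 0.28 and also holds Wrap53. Mdm4, the partner of Mdm2, stood at 0.25, the acetyltransferase Ep300 at 0.20, the deubiquitinase Usp7 at 0.18 and Cdkn2a, whose product ARF inhibits MDM2, at -0.14.

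The lists were also counted in the other contrasts. In the difference between names in γH2AX, 18 target bins were higher and 6 lower, and 8 regulator bins were higher and 1 lower, against 35.1% and 38.3% of all bins. In γH2AX over H2AX of KO clones, 3 target bins were higher and 15 lower (median -0.49, with 32.6% and 29.9% of all bins), with Epha2 at -1.01, Pidd1, a scaffold of caspase activation, at -0.94 and Plk3 at -0.81. Among regulators 0 were higher and 6 lower (median -0.33), with Trp53 at -0.83, Ep300 at -0.82 and Chek2 at -0.73. In γH2AX of KO against WT, 9 target bins were higher and 9 lower, and 5 regulator bins were higher and 5 lower, with 60.1% of all bins called in either direction. Perp (0.44), Apaf1 (0.41) and Sesn1 (0.38) share chromosome 10 with Mdm2, whose chromosome median was 0.39, and were higher, as were the kinase Atr (0.24) and the phosphatase Ppm1d (0.23). Gadd45a (-0.25), Rchy1 (-0.23), Atm (-0.17) and Chek1 (-0.16) were lower.

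Reads assigned to either parental genome of the hybrid were analysed in WT of the second table only, since parental columns of other libraries matched no single sample. Which parent is genome1 is not stated in the labels or headers. The share of assigned reads from genome1 spanned 17.6% to 67.6% over the 10 bins, with 41.3% to 74.4% of reads assigned. In γH2AX it was lowest at Phlda3, with 18.6% ± 0.824, and at the adjoining bin of Btg2, with 23.5% ± 0.6 (SD, n = 2 each). It was highest at Bbc3 (67.1% ± 0.0333) and Sesn2 (67.1% ± 0.353), and at Bax it was 66.7% ± 0.403 (n = 2 each). The remaining shares were 62.6% ± 0.366 at Zmat3, 60.3% ± 0.522 at Ccng1, 57.7% ± 0.46 at Cdkn1a, 51.5% ± 0.464 at Mdm2 and 51.2% ± 0.474 at Gdf15 (n = 2 each).

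The shares were almost the same in all 3 assays. In input Phlda3 had 18.3% ± 0.336, Btg2 24.1% ± 0.609 and Bax 67.0% ± 0.119 (n = 2 each). Over the 10 bins and both replicates, γH2AX differed from input by -1.09 to 0.839 percentage points and from H2AX by -1.04 to 1.56, and H2AX from input by -1.35 to 0.48. Phlda3 and Btg2 lay below the median of chromosome 1 in every library, by -16.9 to -15.3 and by -11.4 to -9.52 percentage points, input included. No test was made of these shares.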

How the data were processed

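H2AX, γH2AX and input were profiled by ChIP-seq. The deposited values are the authors' unscaled read counts in 1 Mb bins, in 2 tables, on mm10 per the submitters' processing notes. Those notes list, with no settings, Bowtie2 2.2.9, MACS2 2.2.7.1, deepTools 2.4.2, SAMtools 0.1.19, Trimmomatic 0.36 and FastQC 0.11.3. How duplicate reads were treated, and how reads were given to bins or to parental genomes, is not stated.

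Column names decided the sample, or only the group for columns named NT or Xray and for clones. The tables hold 144 value columns, of which 42 served here and 102 did not: 24 inputs named for clones, with no labelled sample, and 78 parental columns. Genes were placed in bins by the RefSeq annotation of GRCm38.p6. The 10 genes and the lists of other targets and regulators were chosen with earlier results of these data known. All 10 genes are named, and of each list at most the 5 bins of smallest p among those past the threshold in a contrast. Of the 34 further targets, Ptprv and Trp53cor1 share a bin with Phlda3 and Cdkn1a and were not counted again. Trp53 and Wrap53 share a bin, as do Chek1 and Ei24.

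Bins with a mean count of at least 100 were tested in edgeR 4.0.16 (R 4.3.3) with TMM factors, 1 coefficient per group and the quasi-likelihood F test. All libraries of a table shared the estimate of spread, and DESeq2 1.42.0 was an alternative. The tables were fitted separately. Differences of assays were contrasts in the same fit. Libraries varied by a biological coefficient of 3.23% in the first table, 11.4% among clones and 10.5% among clones with WT. An adjusted p is from edgeR unless DESeq2 is named. No exact permutation test is given, since groups of 2 allow a p of 0.333 at the lowest. The intervals of the parental shares cover counting error only and are narrow against the span of the 10 bins. Some overlap between bins: in γH2AX of replicate 1 those of Bax, Bbc3 and Sesn2 do, as do those of Mdm2 and Gdf15.

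The procedure was tested on simulated data. For γH2AX over input in WT 44% of 1.1-fold changes were recovered, and 100% from 1.25-fold upward. For γH2AX over H2AX in KO clones it recovered 0%, 12%, 62% and 100% of those changed 1.1-, 1.25-, 1.5- and 2-fold. All libraries were simulated as independent, and all bins with the spread common to the fit. Recovery in bins of larger spread was not simulated.

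Pairing was checked by the correlation over bins of deviations from group means. Like-named KO and WT libraries deviated together, as did like-numbered γH2AX and H2AX libraries of the clones and of WT in the second table, and KO clones with and without SIRT7-WT. Between assays of the first table the correlations had no single sign (-0.526 to 0.472, and 0.426 and 0.252 between γH2AX and H2AX), so fits without and with a block are both given there.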

Additional observations from a re-analysis of the deposited data

Results flagged for a closer look

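Several bins were flagged because the γH2AX over H2AX contrast differed between the clones and WT of the second table, tested as an interaction in edgeR's quasi-likelihood fit. In KO clones the log2 differences from WT were -0.97 at Bax, -0.95 at Gdf15, -0.86 at Phlda3, -0.85 at Cdkn1a, -0.84 at Bbc3, -0.70 at Sesn2, -0.55 at Mdm2 and 0.39 at Ccng1. In clones carrying SIRT7-WT they were -0.73 at Bax, -0.69 at Gdf15, -0.64 at Bbc3 and -0.49 at Mdm2. In HY clones they were -0.91 at Bax, -0.91 at Gdf15, -0.83 at Cdkn1a, -0.79 at Bbc3, -0.63 at Sesn2, -0.53 at Mdm2 and 0.38 at Ccng1. All 3 contrasts share the same WT libraries, and WT replicate 1 was deposited in the second table only. Genotype cannot be told apart in them from cloning or from the set of libraries.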

How the results depend on the processing

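Counts are members called of 10, and the cause of a change was not tested unless fewer libraries or bins show it. H2AX over input in WT gave 6 with libraries scaled to the autosomal total in place of 10. γH2AX over H2AX gave 5 in WT with the replicate block by column name, and in KO 3 with that block and 1 with DESeq2, in place of 0. For KO against WT the replicate block gave 9 in γH2AX and 9 in H2AX in place of 3, 7 in input in place of 4, 5 in γH2AX and 4 in H2AX within the chromosome in place of 1, and 2 in γH2AX over input in place of 0. Fitting the compared groups alone gave 5 in H2AX, 0 in γH2AX within the chromosome and 2 in input within the chromosome. A 3 Mb window gave 0 within the chromosome in each of γH2AX, H2AX and input. DESeq2 called 1 in H2AX between column names. In γH2AX between names, Zmat3 was reversed in the 3 Mb window (Zmat3: Xray-named against NT-named columns in gH2AX, -0.00274, adjusted p = 0.597), and likewise relative to input (Zmat3: Xray-named against NT-named columns in gH2AX over input, -0.00808, adjusted p = 0.318). SIRT7-WT against KO clones in γH2AX gave 7 with the pair block in place of 0. Of the contrasts with WT, KO clones gave 5 in the 3 Mb window in place of 8. Clones with SIRT7-WT gave 2 with the autosomal total, 7 with DESeq2, 0 with the compared groups alone, 0 in the 3 Mb window, 7 with the block by name and 10 with the block by named cells, in place of 4. HY clones gave 0 with the compared groups alone in place of 7. KO clones against WT in γH2AX gave 1 with the block by name in place of 0. The replicate block changed no other count of members by over 1.5 times.

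Leaving out 1 library at a time gave 7 to 10 for γH2AX over input in WT, 5 to 6 for H2AX over input in WT, 2 to 10 and 2 to 5 for the same in KO. For KO against WT it gave 3 to 8 in γH2AX, 2 to 3 in H2AX and 2 in input, and within the chromosome 0 to 2, 0 to 1 and 0 to 1. It gave 8 to 9 between names in γH2AX and 7 to 9 relative to input. For γH2AX over H2AX it gave 7 to 10 in KO clones, 5 to 8 with SIRT7-WT and 6 to 10 in HY clones, and against WT 0 to 8, 0 to 7 and 0 to 8. KO clones against WT in H2AX gave 5 to 9. The other contrasts stayed at 0. Where this leaves an arm with 1 library, that library is assumed to vary like the rest.

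The comparison of parental genomes between KO and WT was not run, since KO parental columns matched no single sample. Counting error is small at these depths, and the spread of the clones limits what their contrasts can show.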
